A study of Danio rerio with 9 samples.

Results

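Pigment cells of zebrafish are followed here through 10 genes, chosen by name: pmela, dct, tyr, tyrp1b, oca2 and slc45a2 of black melanophores, mitfa, the regulator of that lineage, gch2 and xdh of yellow xanthophores, and pnp4a of silvery iridophores. All 10 were found among the 21109 genes and transcripts of the deposited table, 9 under the identical symbol and oca2 under the symbol OCA2 (ENSDARG00000061303). PolyA-selected RNA was sequenced from embryonic tissue that the labels place in the trunk, with 3 libraries in each of 3 groups. Embryos received sf3b1 morpholino together with the arsenic sulfide As2S2 (sf3b1 MO + As2S2), sf3b1 morpholino alone (sf3b1 MO), or a control morpholino (control MO). A morpholino is an antisense oligonucleotide that lowers the output of its target RNA, and sf3b1 encodes a core spliceosome protein. Strain, embryo age, arsenic dose and the number of embryos pooled are not in the labels, and the labels do not tie replicates to different clutches; the p-values reflect the scatter among these libraries, which may be technical. The design text speaks of a knockout model, while the sample titles name a morpholino.

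In zebrafish the pigment cells of the body arise from the neural crest, under transcription factors such as sox10. Melanophores make melanin from tyrosine in melanosomes, xanthophores make pteridines from GTP, and iridophores stack crystals of guanine that come from purine metabolism. The retinal pigment epithelium of the eye, which is not of crest origin, makes melanin with the same enzymes, so the melanin genes mark either source. In bulk RNA, fewer cells of a type and less RNA per cell cannot be told apart.

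Whole-number counts exist for the libraries labelled sf3b1 MO (total 21942696 to 26197696) and for control MO (25177824 to 28702980). FPKM (fragments per kilobase of transcript, scaled to library depth) exist for all 9 libraries, and the depth of the As2S2 libraries is not known. By counts, the targeted gene sf3b1 was not lower in the libraries labelled sf3b1 MO (19385 to 22108 counts) than in control MO (13881 to 15420), while by FPKM it was lower, at 108 ± 1.75 against 171 ± 4.68 (SD, n = 3 each), with 169 ± 2.27 in the As2S2 libraries. The level of its RNA therefore does not settle the label, and the group is called by its label. A check against the authors' deposited mean column covered the control MO and sf3b1 MO libraries, not those with As2S2. Over those 6 libraries, all 10 pigment cell genes had FPKM whose mean on the log2 scale matched that column within 0.001. FPKM per count stayed within a range of 7.19% over the 6 libraries in 9 of them; in pnp4a the range was 27.7%. Skeletal muscle genes (8 genes) summed to 6554 to 6671 FPKM with As2S2, 11301 to 11493 in the libraries labelled sf3b1 MO and 25151 to 25479 in control MO. Despite the trunk label, 11 photoreceptor genes summed to 249 to 257, 2324 to 2407 and 2798 to 2943 FPKM in the same order of groups.

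Levels of the 10 genes, per length, spanned a wide range. With As2S2 the order by mean FPKM was tyrp1b (172), dct (69.6), pmela (62.7), gch2 (21.7), slc45a2 (18.0), pnp4a (7.63), tyr (6.28), oca2 (3.71), mitfa (2.98) and xdh (0.102). In the libraries labelled sf3b1 MO it was tyrp1b (193), pmela (57.0), dct (52.3), gch2 (15.8), slc45a2 (13.7), pnp4a (7.97), tyr (3.79), mitfa (2.42), oca2 (2.21) and xdh (0.265). In control MO it was tyrp1b (179), dct (57.1), pmela (53.5), gch2 (46.9), pnp4a (18.6), slc45a2 (10.4), tyr (6.07), mitfa (4.13), oca2 (1.82) and xdh (0.636). Neighbours whose libraries overlapped were oca2 and mitfa with As2S2, and gch2 with slc45a2, tyr with mitfa, and mitfa with oca2 in the libraries labelled sf3b1 MO. The melanophore genes tyrp1b, pmela and dct together made up 90.9% to 92.5%, 92.8% to 94.5% and 93.9% to 94.3% of the summed FPKM of the 6 melanophore genes in these groups.

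**Figure D1:**
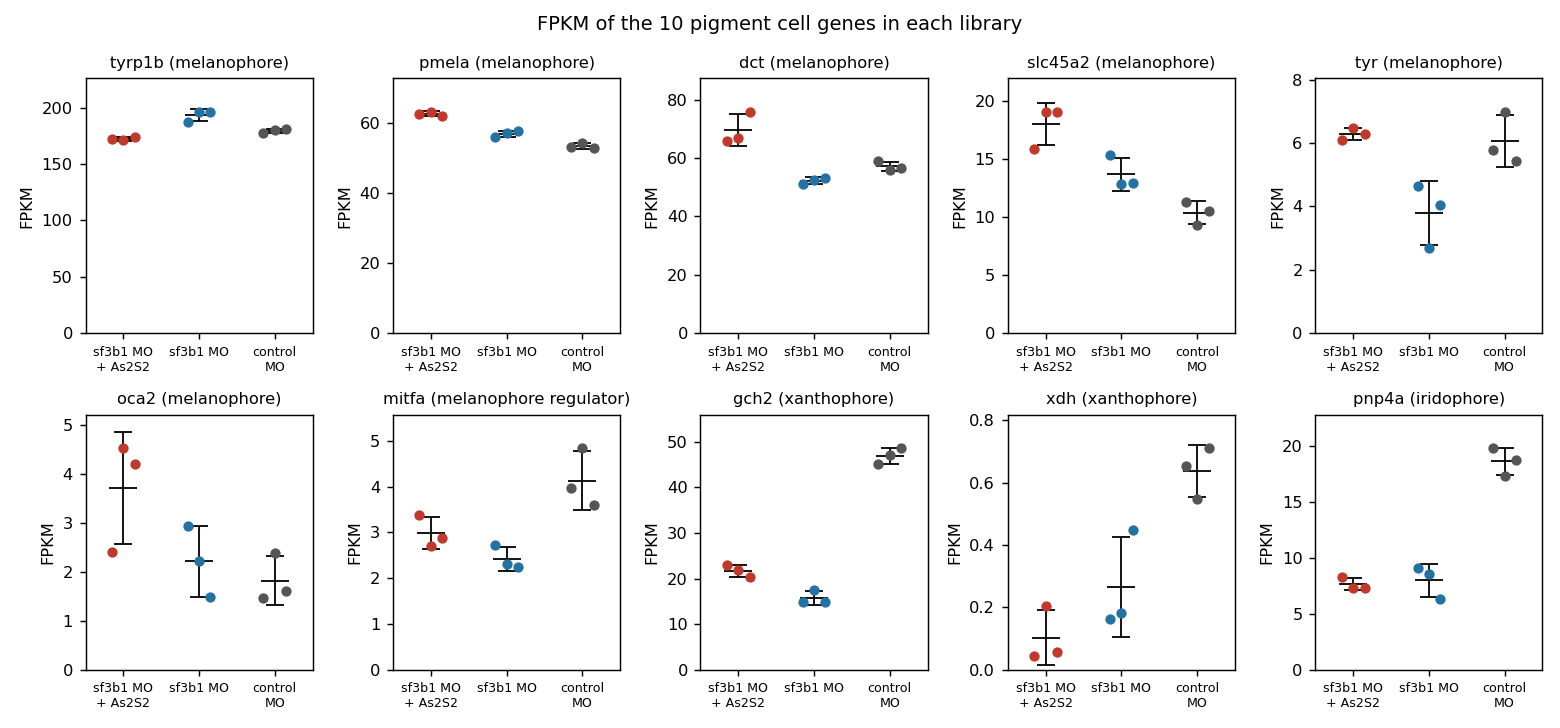
FPKM (y axis, linear from 0) of the 10 genes in each library by group (x axis); points are libraries, and bars give the mean ± SD of 3 libraries. Among the abundant melanophore genes, pmela and dct are highest with As2S2, at means of 62.7 and 69.6 FPKM, and tyrp1b in the libraries labelled sf3b1 MO, at 193; gch2 and pnp4a are highest in control MO, at 46.9 and 18.6 FPKM.

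The comparison of sf3b1 MO with control MO asks what the sf3b1 morpholino changed, and was tested on counts with edgeR's quasi-likelihood test. In the libraries labelled sf3b1 MO, gch2, xdh and pnp4a were lower, at log2 fold changes of -1.55 to -1.04. mitfa (-0.78) and tyr (-0.65) were lower too, and slc45a2 was higher (0.43). The abundant melanophore genes tyrp1b, pmela and dct moved by less than a log2 fold change of 0.2. Of all 20723 genes tested, 51.1% were called at an adjusted p below 0.05, 25.2% higher and 25.9% lower. Of the 10 pigment cell genes 3 were called higher, 6 lower and 1 was not called. By FPKM, 3 of the 10 genes had every library labelled sf3b1 MO above every control (27.8% of all genes did) and 6 below (31.6%). Calls were frequent throughout, so the sizes are given for each gene.

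gch2 encodes the GTP cyclohydrolase that starts pteridine synthesis in xanthophores. It stood at 31.6, 37.4 and 31.8 CPM, that is, counts scaled by library total and TMM factor, in the libraries labelled sf3b1 MO, against 94.8, 98.5 and 101 CPM in control MO. The groups lie far apart, with a log2 fold change of -1.55 (SE 0.07, edgeR adjusted p = 7.3e-10). xdh, whose enzyme xanthine dehydrogenase takes part in purine breakdown and pteridine pigment formation, was counted 24, 27 and 77 times in the libraries labelled sf3b1 MO, against 122, 89 and 121 times in control MO. Replicate 3 of the libraries labelled sf3b1 MO was the highest of its group and still below the lowest control (log2 fold change -1.21, SE 0.36, adjusted p = 0.018). At these low counts the call was lost without sf3b1 MO replicate 2 (adjusted p = 0.060) and without control MO replicate 1 (0.054) or 3 (0.058), and the log2 fold change was -1.83 without sf3b1 MO replicate 3.

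pnp4a encodes a purine nucleoside phosphorylase of iridophores, which provides guanine. It stood at 19.0, 19.0 and 16.1 CPM in the libraries labelled sf3b1 MO, against 39.1, 35.3 and 36.9 CPM in control MO. The highest value in the libraries labelled sf3b1 MO was well below the lowest in control MO (log2 fold change -1.04, SE 0.09, edgeR adjusted p = 4.5e-07). Its FPKM gave a larger difference, 9.11, 8.54 and 6.27 against 19.8, 17.3 and 18.7, which is a log2 ratio of means of -1.22.

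mitfa, the transcription factor without which zebrafish form no body melanophores, was counted 108, 97 and 103 times in the libraries labelled sf3b1 MO, against 207, 229 and 173 times in control MO. The groups did not overlap (log2 fold change -0.78, SE 0.18, edgeR adjusted p = 0.0025). The mean FPKM were 2.42 ± 0.268 in the libraries labelled sf3b1 MO and 4.13 ± 0.635 in control MO (SD, n = 3 each).

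The melanosome genes divided. tyrp1b, a melanin synthesis enzyme of the tyrosinase family, stood at 405, 427 and 428 CPM in the libraries labelled sf3b1 MO, against 380, 382 and 384 CPM in control MO (log2 fold change 0.14, SE 0.03, edgeR adjusted p = 0.0022). pmela encodes the protein of the fibrils on which melanin is laid down. It stood at 181, 185 and 189 CPM in the libraries labelled sf3b1 MO, against 168, 170 and 165 CPM in control MO (0.14, SE 0.04, adjusted p = 0.0047). In both genes the groups stood apart by a small margin, and replicates lay close together.

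slc45a2, a transporter of the melanosome membrane, showed the largest rise of the 6 melanophore genes chosen by name in the libraries labelled sf3b1 MO. It stood at 29.3, 24.8 and 24.9 CPM there against 21.5, 17.6 and 19.7 CPM in control MO (log2 fold change 0.43, SE 0.10, edgeR adjusted p = 0.0034). tyr, the tyrosinase that carries out the first step from tyrosine to melanin, went the other way, at 9.94, 5.77 and 8.76 CPM in the libraries labelled sf3b1 MO against 12.3, 14.8 and 11.4 CPM in control MO (-0.65, SE 0.19, adjusted p = 0.017). Replicate 2 was the lowest of the libraries labelled sf3b1 MO, and the call was lost without control MO replicate 2 (adjusted p = 0.058). dct, the dopachrome tautomerase of the same family, stood at 105, 109 and 112 CPM in the libraries labelled sf3b1 MO, against 118, 116 and 117 CPM in control MO (-0.10, SE 0.04, adjusted p = 0.046). That call, at the threshold, was lost without sf3b1 MO replicate 1 (adjusted p = 0.16) or 2 (0.072), and without control MO replicate 1 (0.13), 2 (0.086) or 3 (0.10). It was also lost by DESeq2 (adjusted p = 0.12).

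oca2, which helps set the pH of melanosomes, was counted 171, 135 and 105 times in the libraries labelled sf3b1 MO, against 112, 160 and 113 times in control MO. The groups overlapped and no difference was called (log2 fold change 0.31, 95% interval -0.27 to 0.88, edgeR adjusted p = 0.36).

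**Figure D2:**
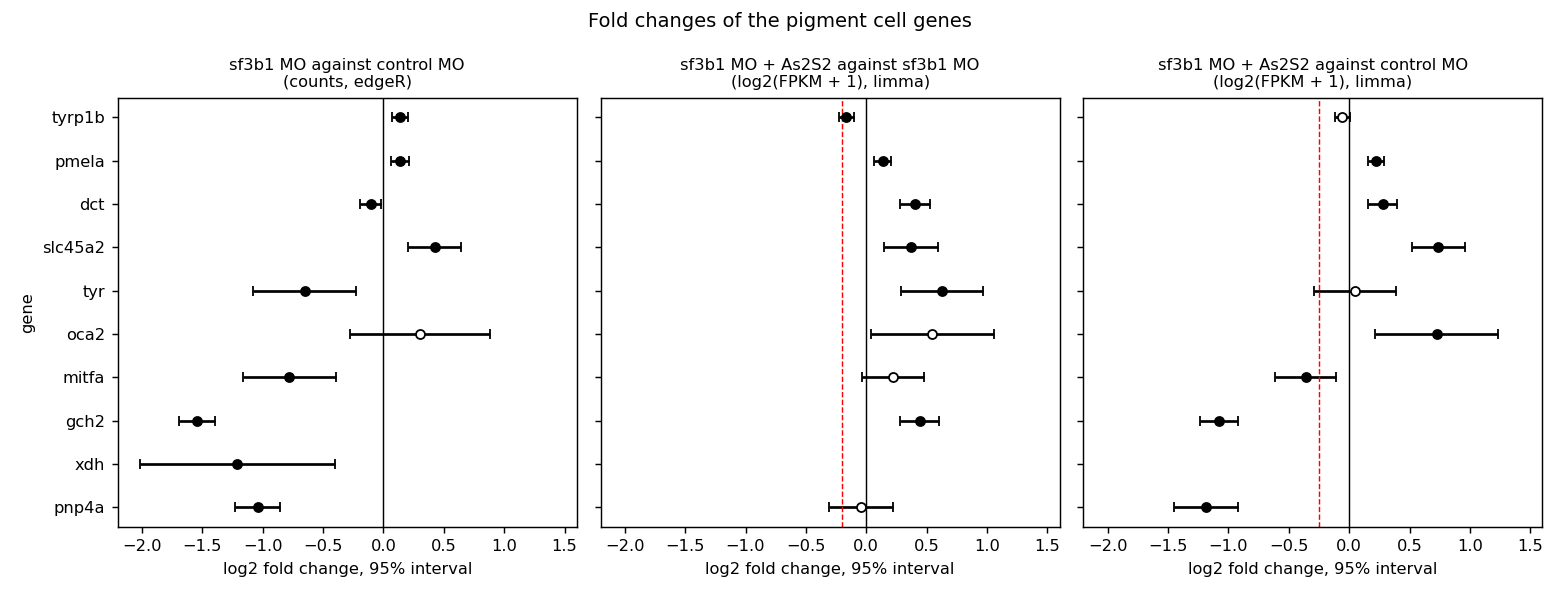
Log2 fold changes (x axis, unshifted) of the 10 genes (y axis) in the 3 comparisons, with 95% intervals; filled points are called at an adjusted p below 0.05, and the red dashed line is the median gene in the FPKM comparisons. In the comparison of sf3b1 MO with control MO, gch2, xdh, pnp4a and mitfa lie left of 0, from -1.55 to -0.78; xdh is absent from the FPKM comparisons because it did not pass the expression filter.

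The same FPKM were also set against the melanophore genes of the same library, a ratio that does not depend on how libraries are scaled. For each 100 FPKM of the 6 melanophore genes, gch2 had 4.55 to 5.41 FPKM in the libraries labelled sf3b1 MO and 14.6 to 15.8 FPKM in control MO. For pnp4a these were 1.93 to 2.87 and 5.61 to 6.42, and for mitfa 0.688 to 0.861 and 1.17 to 1.57. The groups did not overlap in any of the 3 ratios, nor in the FPKM of these genes. By FPKM, 31.6% of all genes had every library labelled sf3b1 MO below every control. The denominator of the ratios, the summed FPKM of the melanophore genes, was 317 to 326 in the libraries labelled sf3b1 MO and 308 to 309 in control MO. With so even a denominator the ratios follow the FPKM, and are not a separate line of evidence.

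**Figure D3:**
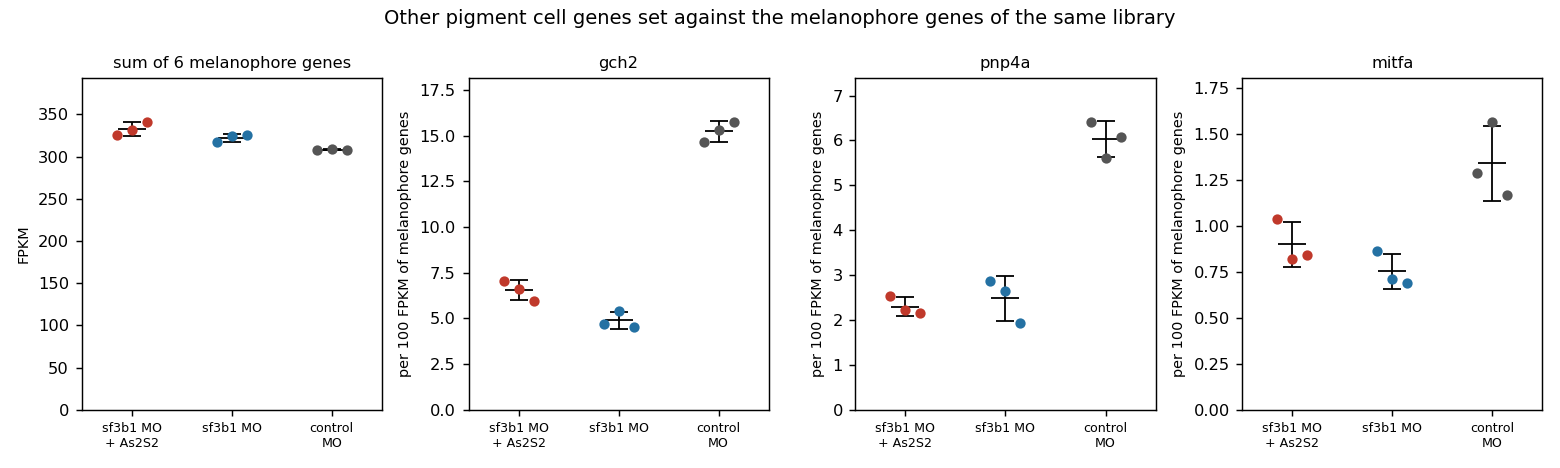
The summed FPKM of the 6 melanophore genes (left, y axis in FPKM) and, for gch2, pnp4a and mitfa, FPKM per 100 FPKM of those genes in the same library, by group (x axis); points are libraries and bars give the mean ± SD of 3 libraries. The sum stays between 308 and 341 FPKM in all 9 libraries, while gch2 and pnp4a per melanophore FPKM are highest in control MO.

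Further genes of the pathways came from lists of names. Their counts stand beside 25.2% of all genes tested called higher and 25.9% lower. Of 14 other melanophore genes 2 rose, 7 fell and 5 were not called, with a median log2 fold change of -0.38, against -0.02 over all genes tested. pmelb, the copy of pmela, rose (0.17), as did trpm1b (0.52), a cation channel of melanophores that in the eye is also known from retina. The gene of the melanosome transport protein rab27a fell (-1.06, adjusted p = 0.0024). Named after their values were seen, the gene of the receptor kita, on which melanophore survival and migration depend, stood at -1.44 (adjusted p = 0.0040) and that of the melanocortin receptor mc1r at -1.06 (adjusted p = 0.025, all from edgeR). Both were scarce, at 0.137 and 0.504 FPKM in the libraries labelled sf3b1 MO and 0.389 and 1.09 FPKM in control MO.

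Of 17 other xanthophore and pteridine genes 2 rose, 8 fell and 7 were not called (median -0.25). aox5, an aldehyde oxidase that marks xanthophores, stood at 2.71, 2.65 and 2.47 FPKM in the libraries labelled sf3b1 MO, against 4.95, 4.32 and 4.88 FPKM in control MO (log2 fold change by counts -0.83). The sugar transporter gene slc2a11b, required for xanthophore differentiation in medaka, fell by 1.32 on the log2 scale. qdpra, which recycles the biopterin cofactor and is not limited to pigment cells, rose (0.42). Of 22 other iridophore and purine synthesis genes 0 rose, 14 fell and 8 were not called, with a median of -0.55. Among those that fell were pnp5a, a relative of pnp4a (-1.54, SE 0.10, edgeR adjusted p = 4.3e-08), the apolipoprotein gene apoda.1 (-0.95) and fhl2a (-0.99).

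Many neural crest genes were lower too: of 15, 3 rose, 10 fell and 2 were not called (median -0.43). Over all genes tested 25.2% rose and 25.9% fell. snai2, a transcription factor of migrating crest, fell by 1.24 on the log2 scale and twist1b by 0.94, while tfap2c rose by 0.31. For genes of the retinal pigment epithelium no lower call was made: of 16, 4 rose, 0 fell and 12 were not called (median 0.10), with otx2b at 0.28, rlbp1a at 0.30 and rgrb at 0.34 by edgeR. Their summed level was 302 to 310 FPKM in the libraries labelled sf3b1 MO and 281 to 295 in control MO, and no gene of the list was at 0 throughout a group. The part of eye pigment epithelium in the levels of the melanophore genes was not tested. Of 11 photoreceptor genes 2 rose, 8 fell and 1 was not called (median -0.20). Skeletal muscle genes fell in 7 of 8 cases (median -1.37), the myosin gene myhz2 by 1.92 on the log2 scale, so lower values of this size were not particular to pigment cells.

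**Figure D4:**
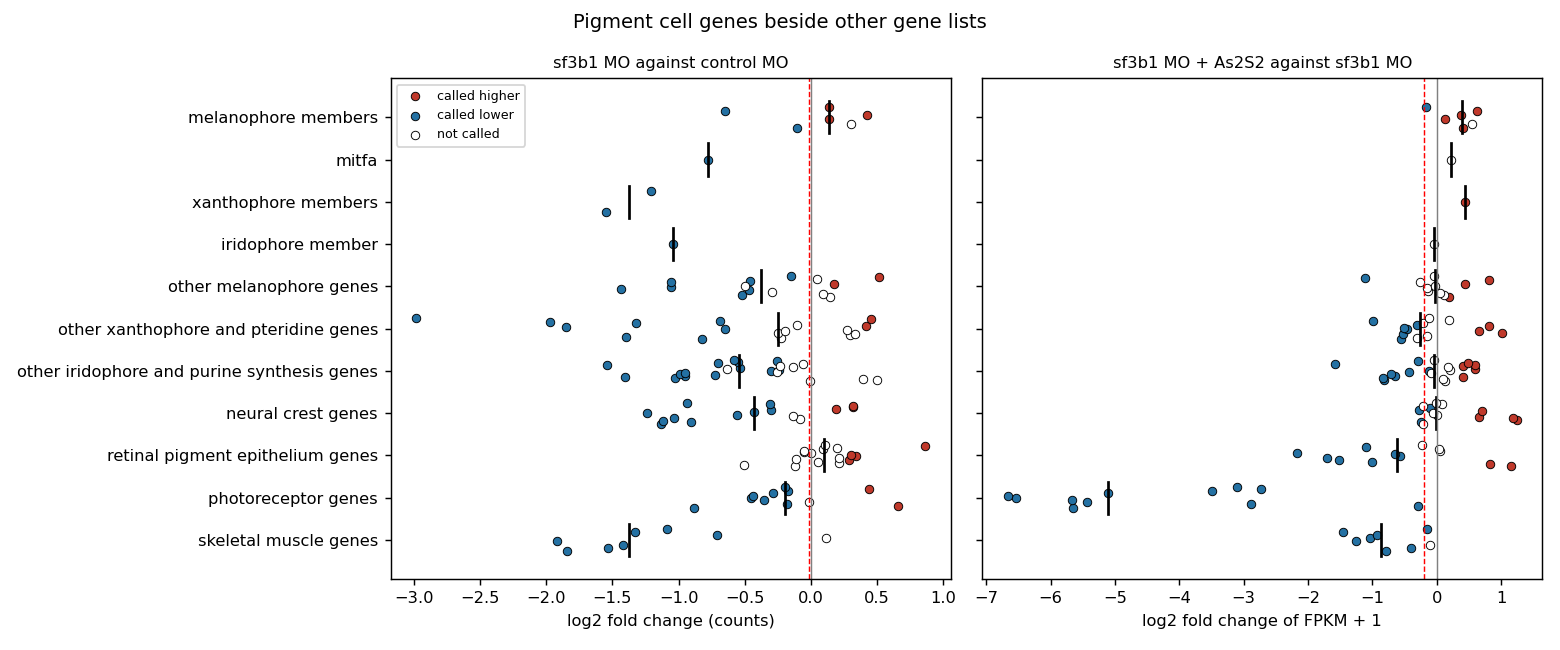
Log2 fold changes (x axis, unshifted) of single genes in each list (y axis) for sf3b1 MO against control MO by counts (left) and sf3b1 MO + As2S2 against sf3b1 MO by FPKM (right); colours give the call, black bars the median of the list and the red dashed line the median of all genes. On the left, xanthophore, iridophore and muscle genes have medians at or below -1.04, and the 6 melanophore genes a median of 0.14. The longer xanthophore, iridophore and melanophore lists have theirs at -0.25, -0.55 and -0.38. On the right, photoreceptor genes have their median at -5.11, the 6 melanophore genes at 0.39 and the longer melanophore list at -0.02.

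The comparison of sf3b1 MO + As2S2 with sf3b1 MO asks what As2S2 changed in embryos that carried the sf3b1 morpholino, and rests on FPKM, tested with limma on log2(FPKM + 1). Of the 6 melanophore genes 4 were called higher with As2S2, as was gch2, by up to a log2 fold change of 0.63. tyrp1b was slightly lower before centring, and no difference was called for oca2, mitfa or pnp4a. Of 11 other melanophore genes tested, 3 were called higher, 1 lower and 7 were not called. Of 18013 genes tested 61.8% were called, 17.3% higher and 44.5% lower, and the median gene stood at -0.20. Centring every library at its median gave 30.2% higher calls and 27.4% lower calls. Of the 9 pigment cell genes that passed the filter of 1 FPKM in 3 libraries, 5 were called higher, 1 lower and 3 were not called; after centring 7 were called higher and 0 lower. In 5 of the 9 all libraries with As2S2 stood above those without it (19.1% of the genes tested did), in 1 below (46.8%). Fold changes below are relative to the median gene, while adjusted p-values are for the unshifted values. These fold changes are differences of log2(FPKM + 1), which understate the ratio of FPKM for scarce genes.

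tyr stood at 6.09, 6.48 and 6.28 FPKM with As2S2, against 4.65, 2.68 and 4.05 FPKM in the libraries labelled sf3b1 MO. All libraries with As2S2 were higher (log2 fold change 0.83, SE 0.15, limma adjusted p = 0.0052). dct stood at 65.8, 67.0 and 75.9 FPKM with As2S2, against 51.1, 52.5 and 53.3 FPKM in the libraries labelled sf3b1 MO. Replicate 3 with As2S2 was the highest, and the groups did not overlap (0.61, SE 0.05, adjusted p = 0.00015). slc45a2 stood at 15.9, 19.0 and 19.1 FPKM with As2S2, against 15.3, 12.8 and 12.9 FPKM in the libraries labelled sf3b1 MO, close to touching in replicate 1 of both (0.57, SE 0.10, adjusted p = 0.0087).

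pmela rose by a small and even amount, at 62.7, 63.3 and 62.0 FPKM with As2S2 against 56.0, 57.3 and 57.7 FPKM in the libraries labelled sf3b1 MO (log2 fold change 0.34, SE 0.03, limma adjusted p = 0.0033). Of the 6 melanophore genes chosen by name, only tyrp1b had a lower mean with As2S2. tyrp1b stood at 172, 171 and 174 FPKM with As2S2 against 187, 196 and 196 FPKM in the libraries labelled sf3b1 MO. It was called lower on the deposited scale (unshifted log2 fold change -0.16, SE 0.03, adjusted p = 0.00070), but stood at 0.04 relative to the median gene, and after centring it was not called (adjusted p = 0.090). As a share of the summed melanophore genes, tyrp1b made up 51.0% to 53.0% with As2S2 and 59.0% to 60.7% in the libraries labelled sf3b1 MO, while dct made up 20.2% to 22.2% and 16.1% to 16.4%. These shares do not depend on scaling, so the melanophore genes did not move in step.

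oca2 stood at 2.40, 4.52 and 4.21 FPKM with As2S2, against 2.93, 2.22 and 1.49 FPKM in the libraries labelled sf3b1 MO. The groups overlapped through replicate 1 of each, and no difference was called (0.75 on the log2 scale against the median gene, SE 0.23, limma adjusted p = 0.061). It was called without replicate 1 of the As2S2 libraries (adjusted p = 0.012), without replicate 1 of the libraries labelled sf3b1 MO (0.032) and after centring (0.016). mitfa stood at 3.37, 2.71 and 2.87 FPKM with As2S2, against 2.73, 2.30 and 2.24 FPKM in the libraries labelled sf3b1 MO, and was not called (0.42, SE 0.11, adjusted p = 0.12), though it was after centring (0.0074).

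gch2 stood at 23.0, 21.8 and 20.4 FPKM with As2S2, against 14.9, 17.5 and 14.8 FPKM in the libraries labelled sf3b1 MO. Every library with As2S2 was above every library without it (log2 fold change 0.64, SE 0.07, limma adjusted p = 0.00048). Per 100 FPKM of the melanophore genes it was at 5.97 to 7.06 with As2S2 and 4.55 to 5.41 in the libraries labelled sf3b1 MO. xdh, at 0.045, 0.203 and 0.057 FPKM with As2S2 and 0.163, 0.182 and 0.449 FPKM in the libraries labelled sf3b1 MO, was below the filter. In a fit without the filter xdh was not called (unshifted log2(FPKM + 1) difference -0.19, SE 0.10, limma adjusted p = 0.12). That scale understates the change at such low values: the log2 ratio of the means was -1.38, though the libraries of the groups overlapped.

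pnp4a stood at 8.24, 7.33 and 7.32 FPKM with As2S2, against 9.11, 8.54 and 6.27 FPKM in the libraries labelled sf3b1 MO. The groups overlapped and no difference was called (unshifted log2 fold change -0.04, 95% interval -0.31 to 0.22, limma adjusted p = 0.77). Its sign is not determined: the value was 0.05 without sf3b1 MO replicate 1, 0.01 without sf3b1 MO replicate 2 and 0.16 relative to the median gene. In the libraries labelled sf3b1 MO, FPKM per count of pnp4a stood at 97.1%, 91.1% and 79.3% of the control MO mean. The counts there were even, at 414, 431 and 417, and the overlap rests on the 6.27 FPKM of replicate 3. FPKM per count is not known with As2S2, so this comparison is limited by the FPKM of pnp4a.

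The longer lists stand beside 17.3% of all genes called higher and 44.5% lower, or 30.2% and 27.4% after centring. In them, 11 other melanophore genes passed the filter, of which 3 rose, 1 fell and 7 were not called. After centring these were 5, 1 and the rest. slc24a5, the exchanger of the golden locus, stood at 3.82, 3.82 and 3.48 FPKM with As2S2, against 1.72, 1.72 and 1.62 FPKM in the libraries labelled sf3b1 MO (log2 fold change against the median gene 1.01, limma adjusted p = 0.00037). rab27a rose too (0.65). trpm1b fell, at 15.8, 18.5 and 18.3 FPKM with As2S2 against 39.8, 39.1 and 37.9 FPKM in the libraries labelled sf3b1 MO (-0.91, adjusted p = 1.8e-06).

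Of 14 xanthophore and pteridine genes that passed, 3 rose and 6 fell, or 4 and 3 after centring. These counts lie near the shares over all genes, 17.3% and 44.5%, or 30.2% and 27.4% after centring. pax7a and pax7b, transcription factors of xanthophore precursors that also serve muscle stem cells and the neural tube, rose (1.21 and 0.86 relative to the median gene). aox5 fell, at 1.57, 1.42 and 1.38 FPKM with As2S2 against 2.71, 2.65 and 2.47 FPKM in the libraries labelled sf3b1 MO (-0.35, limma adjusted p = 0.00028). Of 19 iridophore and purine synthesis genes 5 rose and 8 fell, or 9 and 5 after centring. paics, a purine synthesis enzyme that all dividing cells use, rose (0.80). pnp6, another relative of pnp4a, stood at 0.973, 0.605 and 0.553 FPKM with As2S2. In the libraries labelled sf3b1 MO it stood at 4.08, 4.15 and 3.96 FPKM (-1.37 on the log2(FPKM + 1) scale, limma adjusted p = 1.2e-06). prps1a was called lower only on the deposited scale (-0.29 unshifted and -0.09 relative to the median gene).

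Of 13 neural crest genes 4 rose and 3 fell, or 7 and 0 after centring. Over all genes the shares were 17.3% and 44.5%, or 30.2% and 27.4% after centring. pax3a was scarce and rose, with 2.58, 3.44 and 3.39 FPKM with As2S2 and 0.860, 0.799 and 0.561 FPKM in the libraries labelled sf3b1 MO (1.45 against the median gene). prdm1a (1.38) and sox9b (0.91) rose as well, and both also serve other tissues.

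Of 12 genes of the retinal pigment epithelium that passed the filter, 2 rose and 7 fell with As2S2, with the same counts after centring. Among all genes tested 17.3% rose and 44.5% fell, or 30.2% and 27.4% after centring. rpe65a, the isomerase of the visual cycle, stood at 11.7, 12.3 and 12.1 FPKM with As2S2, against 57.3, 56.2 and 59.4 FPKM in the libraries labelled sf3b1 MO (-1.97 on the log2 scale against the median gene, SE 0.04, limma adjusted p = 2.8e-10). rgrb, a retinal G protein-coupled receptor, averaged 13.8 ± 2.27 FPKM with As2S2 and 47.1 ± 1.23 FPKM in the libraries labelled sf3b1 MO (-1.51). The transcription factor gene otx2b rose (1.04). The whole list summed to 259 to 266 FPKM with As2S2 and 302 to 310 in the libraries labelled sf3b1 MO, with no gene at 0 throughout a group. That sum pools the 2 genes that rose, otx2a and otx2b, with those that fell, so it does not show how far the latter fell. The 7 that fell were rpe65a, rgrb, rgra, rrh, rdh5, rlbp1b and rlbp1a, from -1.97 to -0.37 relative to the median gene. Photoreceptor genes fell in 11 of 11 cases, 10 of 11 after centring, with the opsin gene rho at -3.29, and muscle genes fell in 7 of 8, or 6 of 8 after centring. The part of the eye in the melanophore genes' levels with As2S2 was not tested.

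**Figure D5:**
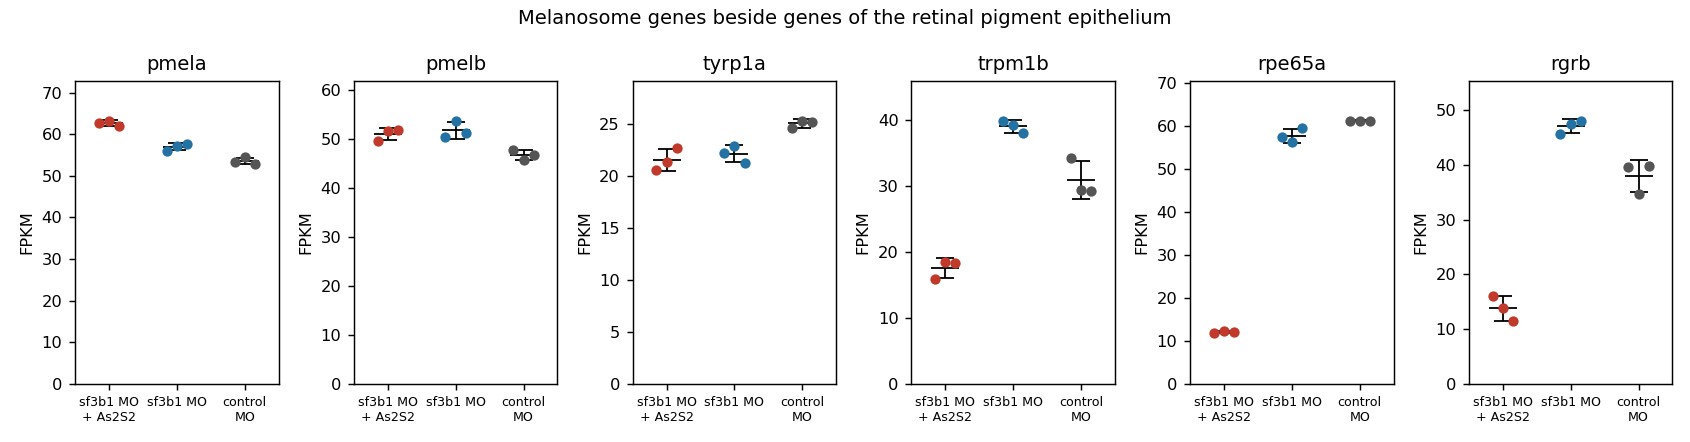
FPKM (y axis, linear from 0) of pmela, its copy pmelb, the tyrp1b copy tyrp1a, trpm1b and 2 genes of the retinal pigment epithelium by group (x axis); points are libraries and bars give the mean ± SD of 3 libraries. From left to right, pmela has means of 62.7, 57.0 and 53.5 FPKM and tyrp1a, shown after its values were seen, 21.6, 22.2 and 25.1 FPKM, while trpm1b, rpe65a and rgrb are lowest with As2S2, at means of 17.5, 12.04 and 13.8 FPKM.

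The comparison of sf3b1 MO + As2S2 with control MO asks how far treated embryos stood from embryos without the sf3b1 morpholino. Both comparisons with control MO share its libraries, as both with As2S2 share theirs, so the values below are not independent of those above. gch2 and pnp4a were below control. Before centring, 4 of the 6 melanophore genes were called higher and 2 were not called, while mitfa was called lower. Of 11 other melanophore genes tested, 3 were called higher and 6 lower. Of 18013 genes 68.0% were called, 19.5% higher and 48.5% lower, with the median gene at -0.25; after centring 34.8% were called higher and 28.0% lower. Of the 9 pigment cell genes tested 4 were called higher, 3 lower and 2 were not called, or 5, 2 and 2 after centring. By FPKM, 4 of the 9 stood wholly above control MO (21.0% of the genes tested did) and 4 wholly below (51.1%).

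gch2 averaged 21.7 ± 1.29 FPKM with As2S2 and 46.9 ± 1.77 FPKM in control MO (SD, n = 3 each; -0.83 on the log2 scale against the median gene, SE 0.07, limma adjusted p = 1.1e-06). pnp4a averaged 7.63 ± 0.530 FPKM with As2S2 and 18.6 ± 1.22 FPKM in control MO (-0.93, SE 0.12, adjusted p = 1.7e-05). In both genes the highest library with As2S2 was below the lowest control. xdh was at 0.102 ± 0.088 FPKM with As2S2 and 0.636 ± 0.083 FPKM in control MO, outside the filter. The log2 ratio of these means was -2.64. Without the filter xdh was called lower (unshifted log2(FPKM + 1) difference -0.57, limma adjusted p = 0.00075).

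slc45a2 averaged 18.0 ± 1.82 FPKM with As2S2 and 10.4 ± 0.993 FPKM in control MO (0.99 on the log2 scale against the median gene, SE 0.10, limma adjusted p = 0.00012). pmela averaged 62.7 ± 0.674 FPKM with As2S2 and 53.5 ± 0.812 FPKM in control MO (0.47, adjusted p = 0.00012), and dct 69.6 ± 5.51 and 57.1 ± 1.57 FPKM (0.53, adjusted p = 0.0013). In these 3 genes no library overlapped between the groups. oca2 averaged 3.71 ± 1.14 FPKM with As2S2 and 1.82 ± 0.498 FPKM in control MO (0.97, adjusted p = 0.018). Its lowest value with As2S2, 2.40 FPKM, barely exceeded the highest control, 2.39 FPKM. The oca2 call was lost without As2S2 replicate 2 (adjusted p = 0.064) or 3 (0.059) and without control MO replicate 1 (0.060) or 3 (0.053).

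tyr averaged 6.28 ± 0.193 FPKM with As2S2 and 6.07 ± 0.818 FPKM in control MO (unshifted log2 fold change 0.05, 95% interval -0.29 to 0.39, limma adjusted p = 0.79), with overlapping libraries. Its unshifted sign turned without control MO replicate 3 (-0.02). Relative to the median gene tyr stood at 0.30, and after centring it was not called (limma adjusted p = 0.070). tyrp1b stood at 171 to 174 FPKM with As2S2 and 177 to 181 FPKM in control MO and was not called (unshifted -0.06, adjusted p = 0.097). Relative to the median gene it stood at 0.19, and after centring it was called higher (adjusted p = 6.5e-05), so its direction depends on the scaling. mitfa averaged 2.98 ± 0.347 FPKM with As2S2 and 4.13 ± 0.635 FPKM in control MO, -0.11 relative to the median gene. It was called lower on the unshifted scale (log2 fold change -0.36, SE 0.11, limma adjusted p = 0.018). That call was lost after centring (adjusted p = 0.62), without As2S2 replicate 2 (0.060) and without control MO replicate 2 (0.070).

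The counts of the longer lists stand beside 19.5% of all genes called higher and 48.5% lower, or 34.8% and 28.0% after centring. Single genes of the xanthophore and pteridine list and of the iridophore and purine synthesis list were among those that fell. slc2a11b averaged 0.232 ± 0.075 FPKM with As2S2 and 3.73 ± 0.624 FPKM in control MO. Its log2(FPKM + 1) difference against the median gene, -1.69 (limma adjusted p = 4.2e-07), understates that ratio. aox5 stood at 1.38 to 1.57 FPKM with As2S2 and 4.32 to 4.95 FPKM in control MO (-0.97). pnp6 (-1.94), fhl2a (-1.27) and fhl2b (-1.15) fell among 19 iridophore and purine synthesis genes, of which 2 rose and 12 fell, or 4 and 9 after centring. Of 14 xanthophore and pteridine genes 4 rose and 6 fell, or 5 and 3 after centring, no larger a share of lower calls than over all genes. pax7a was among those that rose (1.14). Of 11 other melanophore genes 3 rose and 6 fell, or 4 and 2 after centring. slc24a5 (1.09) rose, while trpm1b (-0.53) and rab32a (-0.38) fell. Of 13 neural crest genes 6 rose and 7 fell, or 7 and 4 after centring, with prdm1a at 1.28, snai2 at -0.84 and twist1b at -0.58. Of 12 genes of the retinal pigment epithelium 2 rose and 7 fell, or 2 and 6 after centring, with rpe65a at -2.25 unshifted, otx2a at 1.42 and otx2b at 1.30. Of 11 photoreceptor genes 1 rose and 10 fell, and of 8 muscle genes 0 rose and 8 fell, before and after centring.

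Likeness of patterns was measured as the root mean square difference between log2(FPKM + 1) profiles over the 9 libraries, each centred on its own mean, among 8455 other named genes with a mean of at least 5 FPKM. Nearest to the mean profile of the 6 melanophore genes were rprd2a (0.052), nup58 (0.054) and hif1ab (0.055), and 153 genes lay within 0.1 of it. gch2 had 1 gene within 0.1, tnn (0.083), followed by pnp5a (0.106) and tgfbi (0.118). tnn averaged 26.0 FPKM with As2S2, 18.9 in the libraries labelled sf3b1 MO and 54.3 in control MO. Nearest to pnp4a were agr2 (0.116), the muscle troponin gene tnnt3a (0.120) and gapdh (0.128). These are descriptions over 9 libraries in 3 groups, in which the differences between groups set most of the profile.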

How the data were processed

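All values came from 1 deposited table. The submitters' processing notes name fastp 0.22.0, DESeq2 and GRCz11. For the aligner and the counter nothing is named there. Per the file headers, the authors deposited whole-number counts for 6 libraries (headed wt and ko, taken as control MO and sf3b1 MO) and FPKM for 9. The authors' deposited log2 mean column served as a check of the FPKM of control MO and sf3b1 MO. Their deposited log2 fold changes and p-values were not used for results. Counts are given for 20723 genes and all 9 FPKM for 19760. The sources do not say if the As2S2 libraries were normalized with the others, nor if counting used strand.

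Counts were tested with edgeR 4.0.16 (quasi-likelihood, TMM, robust, default filter, which removed no gene), FPKM with limma 3.58.1 on log2(FPKM + 1) for genes of at least 1 FPKM in 3 libraries, all 9 libraries in 1 fit with a variance trend. This scale understates changes of low genes. The p-values are Benjamini-Hochberg adjusted over all genes tested, with 0.05 as threshold; n is 3 libraries a group. edgeR standard errors were derived from the F statistic, and 95% intervals use the moderated degrees of freedom. Symbols were matched regardless of case. Members, lists and tests were chosen with earlier results of these data known. Besides the 10 members, up to 3 genes per list and comparison were named, those of smallest adjusted p with a mean of at least 1 FPKM, and the 3 nearest genes per profile; mitfb was not analysed here. Reads shared between gene copies could not be checked. Scripts were tested on simulated data.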

Additional observations from a re-analysis of the deposited data

How the results depend on the processing

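Alternatives were another count normalization, DESeq2 1.42.0, other filters, a pseudocount of 0.1, libraries centred on their median, fits of the compared groups alone, the replicate block, FPKM in place of counts for sf3b1 MO against control MO, and leaving out each library. Of 419 values recomputed, 387 kept their direction and side of the threshold, and a count also its size within 1.5 times. In the comparison of As2S2 with sf3b1 MO, centring left 0 members called lower in place of 1, and 7 higher in place of 5. Centring also turned tyrp1b to 0.062 and pnp4a to 0.18 there, and tyrp1b to 0.24 against control MO. Leaving out single libraries turned pnp4a, with a range of -0.19 to 0.0497 for As2S2 against sf3b1 MO, and tyr, with -0.016 to 0.14 for As2S2 against control MO. The causes were not tested. By FPKM, dct was not called in sf3b1 MO against control MO (adjusted p = 0.079). No pairing by replicate number was seen: deviations of same-numbered libraries correlated at -0.072 to 0.042, and those of differently numbered libraries at -0.087 to 0.097. Weak correlations over many genes do not exclude that same-numbered libraries shared a clutch. With the replicate block, 10220, 10926 and 12053 genes were called in the 3 comparisons in place of 10592, 11139 and 12249, and for sf3b1 MO against control MO 4 members were called lower in place of 6, without dct (adjusted p = 0.066) and tyr (0.053). Low counts limit xdh, mitfa and oca2, at 24 to 229 counts per library.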
